A study of Homo sapiens with 9 samples.

Results

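Genes that regulate or mark the mesenchymal state of neuroblastoma were followed on expression arrays: the transcription factor genes PRRX1, SNAI1, SNAI2, TWIST1, TWIST2, ZEB1 and ZEB2, and VIM, which encodes the intermediate filament protein vimentin. Every probe set that the array annotation assigns to these 8 genes alone was taken, which gave 19 of the 54675 probe sets on the array and 8 of the 19775 genes it names. Of the 19, 17 passed the filter on low signal and were tested, and both probe sets that did not pass belong to ZEB2. PRRX1 is read by 3 probe sets, TWIST2 by 2, ZEB1 by 4, ZEB2 by 5, VIM by 2, and SNAI1, SNAI2 and TWIST1 by 1 each.

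The cells were SK-N-AS, an established human neuroblastoma line. The first series of cultures received the RE-EX1 construct, which expresses full-length NRSF, the second received the HZ4 construct, which expresses a truncated NRSF, and the third was untreated. Each series was read at 0, 24 and 48 h on 1 array per time point, so that the 9 groups hold 1 array each. NRSF is the product of REST and represses neuronal genes. The stated aim was to compare each later time point with its 0 h baseline. The sources used here give neither the vector, nor how the constructs entered the cells, nor whether untreated cultures had a mock treatment.

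Neuroblastoma cells occur in an adrenergic state, held by sympathoadrenal transcription factors, and in a mesenchymal state with neural crest-like and migratory features. PRRX1 is a paired-related homeobox factor, and its forced expression is known to move adrenergic neuroblastoma cells toward the mesenchymal state. SNAI and ZEB factors are zinc-finger repressors that bind E-boxes of the form CACCTG and silence epithelial genes such as CDH1. TWIST factors are basic helix-loop-helix (bHLH) proteins that bind the wider E-box CANNTG as dimers, often with TCF3, TCF4 or TCF12, and ID proteins compete for those partners.

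Of the 5 members whose RefSeq promoter windows (GRCh38.p14) were searched, ZEB1 and ZEB2 are those whose upstream sequence holds such E-boxes. The window was the 250 bases before the gene's first listed start, and capitals mark each CANNTG match. Both lines are shown so that the letters of these matches and their spacing can be read.
ZEB1: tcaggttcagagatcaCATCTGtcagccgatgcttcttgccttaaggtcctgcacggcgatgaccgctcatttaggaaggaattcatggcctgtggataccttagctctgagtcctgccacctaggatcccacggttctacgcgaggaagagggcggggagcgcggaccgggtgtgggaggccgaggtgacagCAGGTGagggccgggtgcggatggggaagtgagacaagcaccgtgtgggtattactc
ZEB2: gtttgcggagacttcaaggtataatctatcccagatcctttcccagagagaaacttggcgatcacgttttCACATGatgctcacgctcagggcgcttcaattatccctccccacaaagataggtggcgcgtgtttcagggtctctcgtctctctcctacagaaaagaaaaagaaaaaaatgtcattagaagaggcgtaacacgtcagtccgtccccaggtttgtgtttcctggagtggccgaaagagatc
The ZEB1 window is chr10:31318167-31318416 on the plus strand and lies within the annotated span of the antisense gene ZEB1-AS1. It holds 2 CANNTG matches, of which 1 reads CAGGTG, the reverse complement of CACCTG. The ZEB2 window is chr2:144520120-144520369 on the minus strand, within the span of the antisense gene ZEB2-AS1, and holds 1 CANNTG match and 0 CACCTG matches. Searched on both strands, CACCTG occurred in 17.5% and CANNTG, which includes CACCTG, in 61.8% of 35116 windows of the same length. ZEB1 has 7 listed starts, and the window before the third held 2 CACCTG matches. The windows of PRRX1, TWIST2 and VIM held neither motif. SNAI1, SNAI2 and TWIST1 were not searched, so nothing is known here of their windows. These matches describe letters only.

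In the same annotation PRRX1 spans chr1:170662768-170739421, ZEB2 chr2:144384081-144520119 and TWIST2 chr2:238848085-238910534. TWIST1 spans chr7:19113047-19117636, VIM chr10:17228241-17237593, ZEB1 chr10:31318417-31529804 and SNAI1 chr20:49982980-49988886, and SNAI2 lies on chromosome 8. The sources used here do not give which exon or untranslated region each probe set reads.

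The deposited values are linear signal intensities whose trimmed mean is the same on every array, and tests used limma on their log2. Changes with time were estimated across the 3 series, with series as a block, so each time point has 3 arrays. A call is a Benjamini-Hochberg adjusted p under 0.05 over 26480 probe sets. Nothing in the labels says that the arrays came from separate cultures of 1 condition, so no p-value measures the spread between replicate cultures. A p-value for time is set against how far the changes differed between the 3 series. That mixes the spread between arrays, which may be technical, with any difference in response. Limma also draws on the spread of other probe sets. Signals at each time point are listed below in the order full-length NRSF, truncated NRSF, untreated, unless a series is named. The truncated 24 h array stood apart. Its median signal was 42.67 against 30.87 to 36.97 on the others, 21.9% of its values were at the floor against 24.3% to 26.9%, and its median correlation with the other arrays was 0.888 against 0.901 to 0.915. Precision is limited by the number of arrays.

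The line's state was checked on marker genes. All 9 mesenchymal markers passed the filter, and their summed signal was 24160 to 27380 at 0 h, 19810 to 22450 at 24 h and 22100 to 26340 at 48 h. PRRX1, SNAI2 and VIM are among those 9, and over all arrays VIM alone read 9354 to 14400 and PRRX1 1811 to 5612. The sum is therefore not independent of the genes followed here. Of 13 adrenergic markers 11 had a probe set and 9 passed, with sums of 2898 to 3875, 2662 to 3179 and 3009 to 3102. GATA3, the brightest of those that passed, read 1346 to 1912. TH, the rate-limiting enzyme of catecholamine synthesis, and DBH did not pass. Sums of different genes are not compared with each other. CDH1, which defines epithelial cells, was at the floor on 6 of 9 arrays.

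At 24 h, 6 of the 17 tested probe sets, from 4 genes, were called against 0 h, where 13.1% of all tested probe sets were called (6.62% up, 6.47% down). At an unadjusted p under 0.05 the count was 9, against 25.8% of all. PRRX1 and TWIST1 fell, and SNAI2 and 1 probe set of ZEB2 rose. At 48 h, 2 probe sets were called, SNAI2 up and TWIST1 down, against a background of 6.22% (3.26% up, 2.96% down). At an unadjusted p under 0.05 the count was 4, against 20.2%. From 24 to 48 h, the 3 probe sets of PRRX1 rose, against a background of 2.63% (1.17% up). Of the 6 calls at 24 h, 3 come from PRRX1 alone. The median change of the 17 was -0.13 at 24 h and -0.05 at 48 h on the log2 scale, and that of all tested probe sets was -0.02 at both times. A lower signal in these bulk cultures can come from fewer cells of a type or from less RNA per cell, which cannot be told apart.

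**Figure D1:**
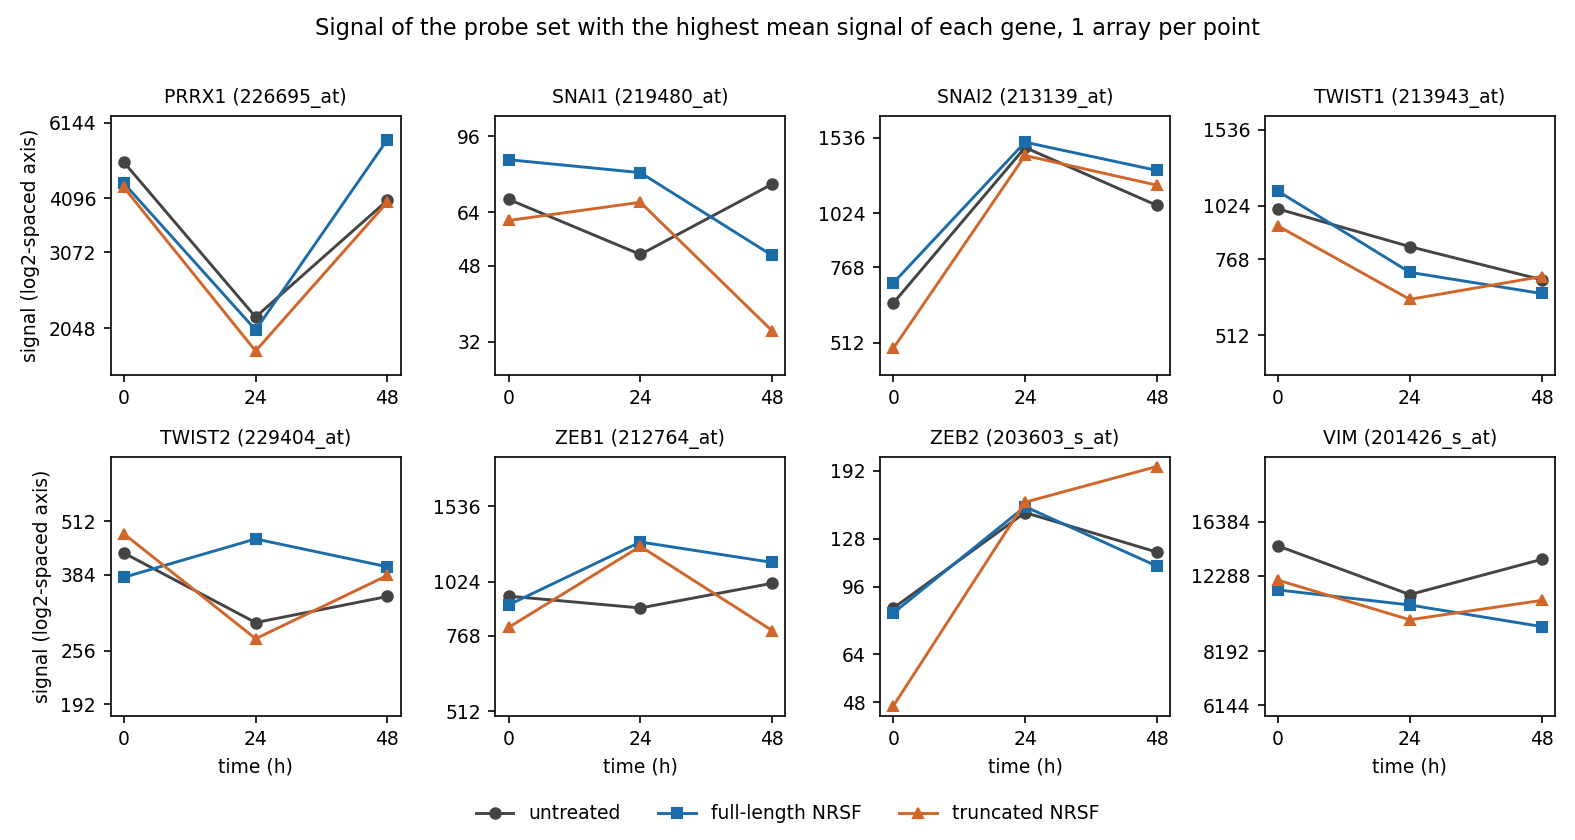
Signal of each gene's probe set with the highest mean, on log2-spaced vertical axes, against time in h; each point is 1 array and the lines join the arrays of 1 series (untreated, full-length NRSF, truncated NRSF). PRRX1 dipped at 24 h in all 3 series, SNAI2 was higher at 24 and 48 h than at 0 h in all 3, and TWIST1 was lower; axes differ between panels and probe sets are not compared in level.

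PRRX1 was the member with a transient drop. Probe set 226695_at read 4442, 4345 and 4971 at 0 h. It read 2027, 1811 and 2172 at 24 h, and 5612, 4016 and 4054 at 48 h. The 24 h arrays lay below all 6 other arrays, and the 0 and 48 h arrays overlapped. Of all tested probe sets, 9.22% had all 48 h arrays above all 24 h arrays. The mean signal was 4590 ± 337 (SD, n = 3) at 0 h, 2000 ± 182 at 24 h and 4560 ± 911 at 48 h. The change at 24 h was -1.20 ± 0.15 (log2, SE), a 2.29-fold decrease, with a limma adjusted p of 3.6e-05. From 24 to 48 h the signal rose by 1.17 ± 0.15 (adjusted p = 0.00021), and at 48 h the difference from 0 h was -0.02 (95% interval -0.34 to 0.29).

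The other PRRX1 probe sets moved the same way. Probe set 205991_s_at, whose identifier marks possible cross-hybridization and whose values are therefore uncertain, read 836.3, 952.4 and 999.7 at 0 h. It read 305.1, 454.9 and 480.4 at 24 h and 1192, 1282 and 930.8 at 48 h. Its 24 h change was -1.19 ± 0.18 (limma adjusted p = 0.00019), and its rise from 24 to 48 h was 1.47 ± 0.18 (adjusted p = 0.00013).

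Probe set 238852_at read 691, 595.1 and 524.3 at 0 h, then 444.1, 197.1 and 247.7 at 24 h. At 48 h it read 660.8, 1020 and 612.8. Its 24 h change was -1.10 ± 0.23 (limma adjusted p = 0.0039) and its rise from 24 to 48 h was 1.42 ± 0.23 (adjusted p = 0.0023). On each PRRX1 probe set the 3 arrays of 24 h lay below the 6 others, which held for 4.35% of all tested probe sets. A call down at 24 h together with a call up from 24 to 48 h was made for 0.71% of all tested probe sets. The rise of 238852_at was 0.94 (adjusted p = 0.052) without the truncated series. All 3 rises lost their call when dim probe sets were kept in the adjustment or when the variance trend was left out. The falls at 24 h also lost their call without the trend, with limma adjusted p of 0.05, 0.067 and 0.14, and 238852_at with dim probe sets kept (0.13).

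SNAI2, which encodes the zinc-finger repressor SLUG of neural crest and mesenchymal cells, rose and stayed high. Probe set 213139_at read 706, 497.5 and 633.9 at 0 h. It read 1499, 1396 and 1457 at 24 h, and 1289, 1191 and 1069 at 48 h. The 3 time points did not overlap: every 24 h array was above every 48 h array, and those were above every 0 h array. Of all tested probe sets, 13.8% had all 24 h arrays above all 0 h arrays, and 12.1% had all 48 h arrays above them. All 48 h arrays lay below all 24 h arrays for 10.2%. The mean was 612 ± 106 (SD, n = 3) at 0 h, 1450 ± 51.8 at 24 h and 1180 ± 110 at 48 h.

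The rise of SNAI2 at 24 h was 1.26 ± 0.15 (log2, SE), 2.39-fold, with a limma adjusted p of 2.1e-05. At 48 h it was 0.96 ± 0.15, 1.95-fold (adjusted p = 0.00083). The step from 24 to 48 h, -0.30 ± 0.15, was not called (adjusted p = 0.34). By series, the difference at 24 h was 1.09 with full-length NRSF, 1.49 with truncated NRSF and 1.20 in untreated cells, so the latter showed it as well. Of all tested probe sets, 2.19% were called up at both times. The 48 h call was lost without the variance trend (adjusted p = 0.14).

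SNAI1, the paralogue that encodes SNAIL, was dimmer and was not called. Probe set 219480_at read 84.72, 61.2 and 68.52 at 0 h, 79.05, 67.47 and 51.03 at 24 h, and 50.77, 33.91 and 74.34 at 48 h. The time points overlapped. The change was -0.13 (95% interval -1.01 to 0.75) at 24 h and -0.49 (-1.37 to 0.39) at 48 h, so a 2-fold decrease lies inside both intervals. That SNAI2 and SNAI1 differ in their response was not tested.

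TWIST1, a bHLH factor of cranial mesoderm and neural crest, fell. Probe set 213943_at read 1106, 918.1 and 1006 at 0 h. It read 716.5, 620.1 and 822.2 at 24 h and 639.9, 700.5 and 688.9 at 48 h. Every 0 h array was above every later array, and 24 and 48 h overlapped. Of all tested probe sets, 14.5% had all 24 h arrays below all 0 h arrays, and 13.4% had all 48 h arrays below them. The mean was 1010 ± 94 (SD, n = 3), 720 ± 101 and 676 ± 32.1.

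The TWIST1 change was -0.49 ± 0.15 at 24 h (limma adjusted p = 0.04) and -0.58 ± 0.15 at 48 h (adjusted p = 0.032). Of all tested probe sets, 1.85% were called down at both times. These calls are near the threshold. At 24 h the change was -0.41 (adjusted p = 0.18) without the truncated 24 h array, and -0.43 (0.23), -0.46 (0.15) and -0.60 (0.076) without the full-length, truncated and untreated series. At 48 h it was -0.47 (0.26), -0.67 (0.055) and -0.59 (0.14) without the same series. The direction was the same in each.

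TWIST2, the paralogue known as Dermo-1 in mesenchymal tissue, was not called by either of its probe sets, which differed in sign. Probe set 229404_at read 379.1, 478.4 and 431.7 at 0 h, 465.4, 272.9 and 297.5 at 24 h, and 401, 382.9 and 342.1 at 48 h. The full-length 24 h array was the highest of its series, and the other 24 h arrays were the lowest of theirs. The change was -0.35 ± 0.20 at 24 h (limma adjusted p = 0.3) and -0.19 ± 0.20 at 48 h (adjusted p = 0.66).

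The dim TWIST2 probe set 1554163_at read 13.48, 19.74 and 5.247 at 0 h, 33.34, 56.77 and 38.87 at 24 h, and 45.21, 45.83 and 73.13 at 48 h. All 6 later arrays were above the 0 h arrays, as 13.8% of tested probe sets were at 24 h and 12.1% at 48 h. The fitted changes were 1.69 ± 0.62 (limma adjusted p = 0.082) and 2.04 ± 0.62 (adjusted p = 0.057), and neither was called. The untreated 0 h array lay under the floor of 8.266, so the fitted values depend on that floor.

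ZEB1, a repressor of CDH1 and of the miR-200 genes, was not called on any of its 4 probe sets. Probe set 212764_at read 905, 802.2 and 948.6 at 0 h, 1267, 1238 and 890.4 at 24 h, and 1136, 789.2 and 1016 at 48 h. Both construct series were higher at 24 h and the untreated series was not, and the time points overlapped. The change was 0.34 ± 0.17 at 24 h (limma adjusted p = 0.21) and 0.13 ± 0.17 at 48 h (adjusted p = 0.72).

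The uncertain ZEB1 probe set 212758_s_at read 379.2, 498.3 and 410.3 at 0 h, 524.8, 732.9 and 480.8 at 24 h, and 483.6, 359.1 and 295.5 at 48 h. It was higher at 24 h than at 0 h within each series. The change was 0.42 ± 0.19 (limma adjusted p = 0.18), and that from 24 to 48 h was -0.62 ± 0.19 (adjusted p = 0.1). The dimmer probe sets 210875_s_at and 239952_at changed by -0.29 ± 0.42 and 0.29 ± 0.73 at 24 h and were not called.

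ZEB2, the paralogue with a role in neural crest and sympathetic development, was called at 24 h on 1 of its probe sets, an uncertain one. Probe set 203603_s_at read 81.87, 46.87 and 84.31 at 0 h. It read 155, 159.2 and 149.6 at 24 h, and 108.5, 197.2 and 118 at 48 h. All later arrays were above the 0 h arrays (13.8% of tested probe sets at 24 h, 12.1% at 48 h), and the truncated series had both the lowest 0 h and the highest 48 h value. The mean was 71 ± 20.9 (SD, n = 3), 155 ± 4.8 and 141 ± 48.7.

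The ZEB2 change on this probe set was 1.17 ± 0.33 at 24 h (limma adjusted p = 0.025) and 0.99 ± 0.33 at 48 h, which was not called (adjusted p = 0.088). At 24 h it was 1.15 (adjusted p = 0.09) without the truncated 24 h array, and 1.30 (0.084) and 0.87 (0.15) without the full-length and truncated series. The mean over the gene's probe sets changed by 0.58 (adjusted p = 0.35).

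Of the other ZEB2 probe sets, 1 went the other way and 1 the same way at 24 h. Probe set 228333_at read 99.32, 116.3 and 101.7 at 0 h, 67.72, 55.35 and 50.6 at 24 h, and 97.55, 40.22 and 78.76 at 48 h. Its later arrays were all below its 0 h arrays, opposite to 203603_s_at, as were those of 14.5% of tested probe sets at 24 h and 13.4% at 48 h. The 24 h change was -0.88 ± 0.38 and was not called (limma adjusted p = 0.15). The dim probe set 235593_at read 13.56, 26.59 and 41.48 at 0 h, 46.3, 67.38 and 64.73 at 24 h, and 52.18, 13.73 and 18.24 at 48 h. Its 24 h arrays were all above its 0 h arrays, and its 48 h arrays overlapped both. It changed by 1.25 ± 0.67 at 24 h (limma adjusted p = 0.25) and -0.07 ± 0.67 at 48 h, and neither was called. Probe sets 233031_at and 233033_at, with highest readings of 38.69 and 34.26, did not pass the filter.

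**Figure D2:**
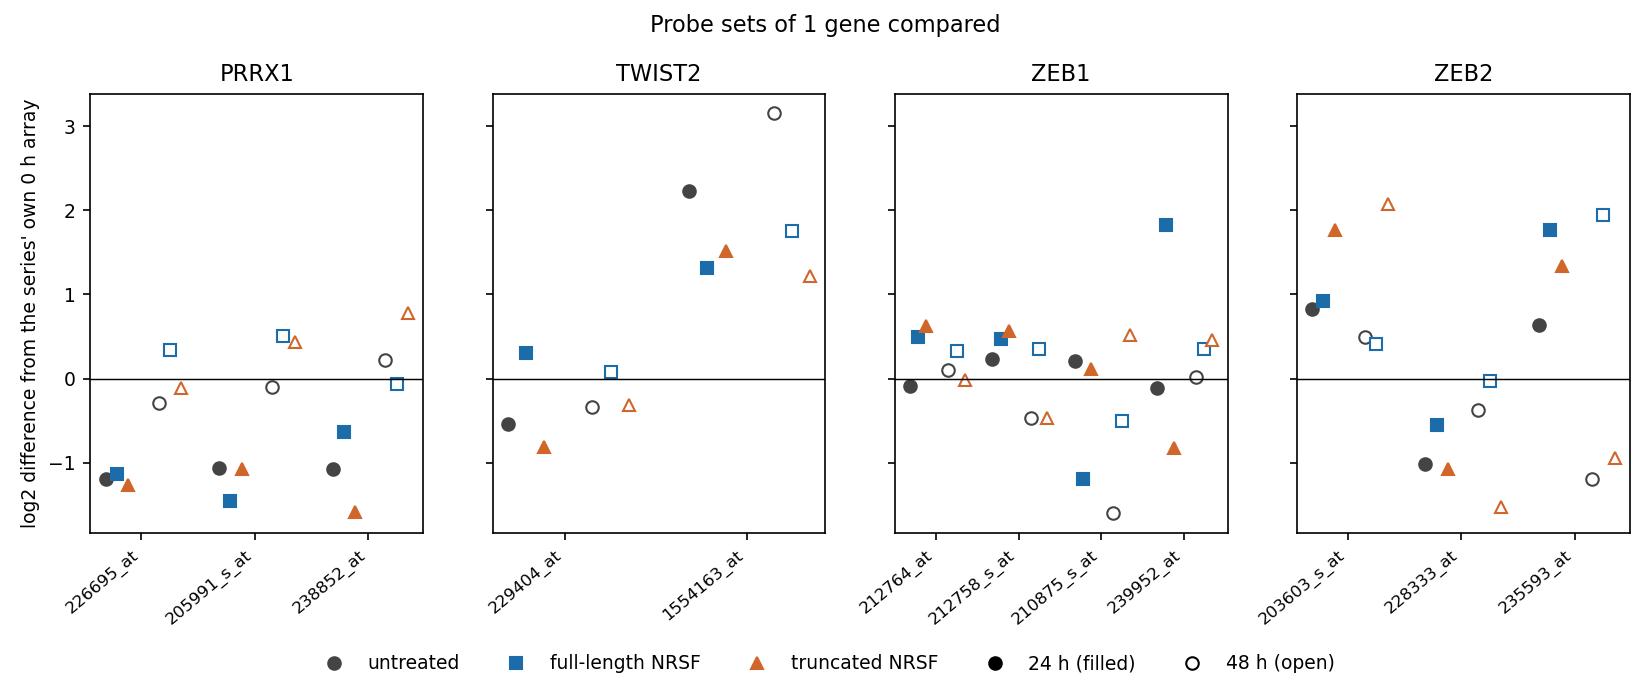
Log2 difference between a later array and the 0 h array of its series for the tested probe sets of PRRX1, TWIST2, ZEB1 and ZEB2; filled symbols are 24 h, open symbols 48 h, each from 1 array. The 3 PRRX1 probe sets were all lower at 24 h, from -0.64 to -1.59, whereas the ZEB2 probe sets 203603_s_at and 228333_at lay on opposite sides of 0.

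VIM, a broad marker of mesenchymal cells, was not called. Its uncertain probe set 201426_s_at read 11380, 11990 and 14400 at 0 h, 10500, 9701 and 11100 at 24 h, and 9354, 10760 and 13400 at 48 h. The 24 h arrays were all below the 0 h arrays, as were those of 14.5% of tested probe sets, and the 48 h arrays overlapped both. The change was -0.27 ± 0.15 at 24 h (limma adjusted p = 0.29) and -0.18 ± 0.15 at 48 h (adjusted p = 0.56). The dim probe set 1555938_x_at read 35.97, 28.81 and 43.1 at 0 h, 50.56, 50.93 and 47.29 at 24 h, and 29.55, 54.33 and 24.99 at 48 h. Its 24 h arrays were all above its 0 h arrays, opposite to 201426_s_at, as were those of 13.8% of tested probe sets. It changed by 0.48 ± 0.53 and -0.05 ± 0.53 and was not called.

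**Figure D3:**
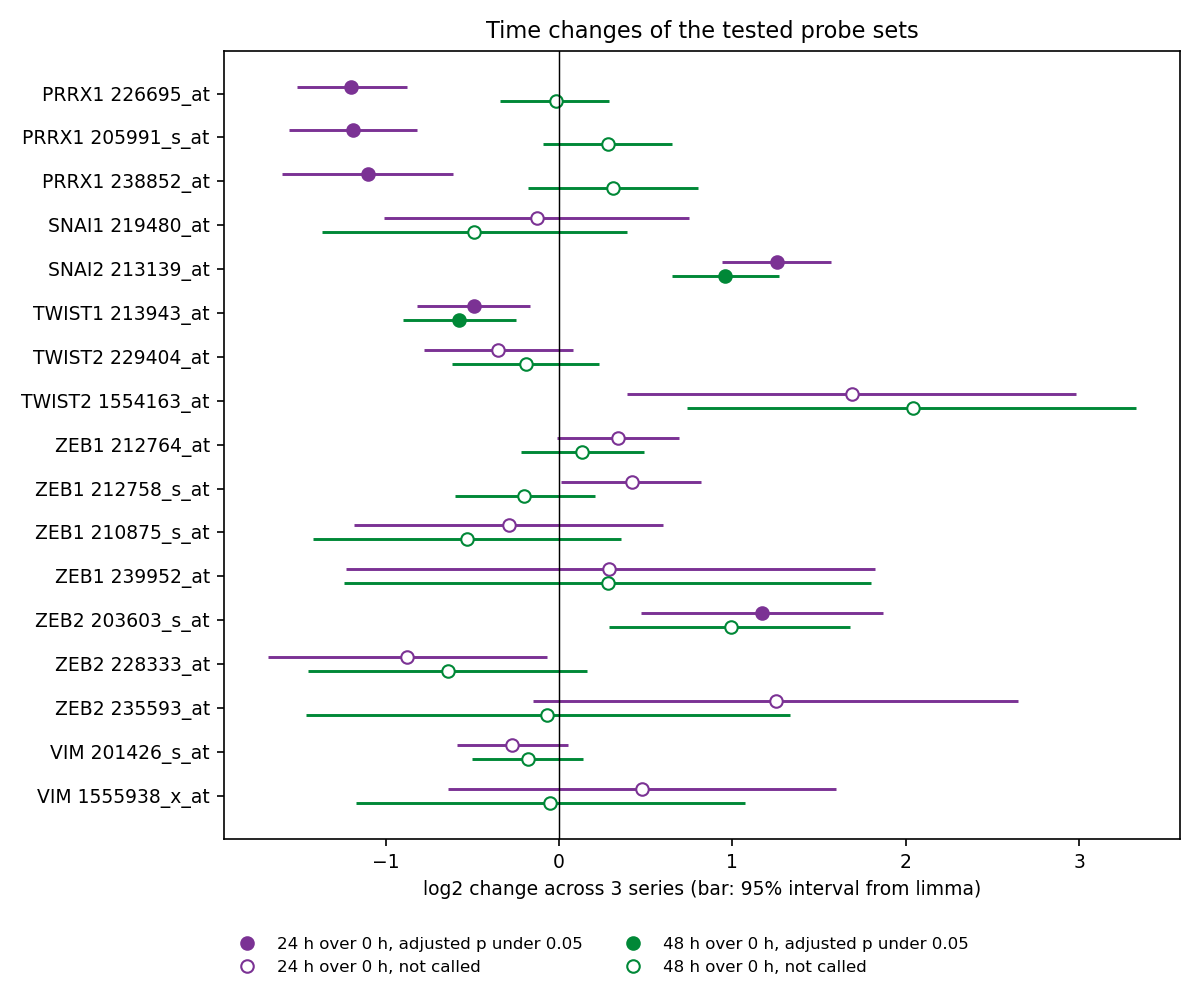
Log2 change at 24 h and at 48 h over 0 h across the 3 series for the 17 tested probe sets, with 95% intervals from limma; filled points have an adjusted p under 0.05. At 24 h 6 points are filled (PRRX1, SNAI2, TWIST1 and ZEB2 203603_s_at) and 2 at 48 h (SNAI2 and TWIST1).

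The constructs were compared with untreated cells through the difference of their changes from 0 h, with 24 and 48 h taken as repeats of 1 effect. With full-length NRSF, 0 of 17 probe sets were called by limma, as were 0% of all tested probe sets, and 0 of the 17 had an unadjusted p under 0.05, against 4% of all. With truncated NRSF, 0 of 17 were called against 0.00755% of all, and 0 had an unadjusted p under 0.05 against 6.52%. Between both constructs, 0 of 17 and 0% were called, and 0 and 5.76% had an unadjusted p under 0.05. No p here shows that the series acted alike, since in simulated data the full-length contrast recovered 2% of 2-fold and 36% of 4-fold changes.

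The intervals that follow rest on 1 array per construct and time point, so they hold no spread between cultures. Their width comes from how far the later time points differed and from the spread of other probe sets. An interval that ends short of 2-fold therefore does not exclude a 2-fold construct effect. For SNAI2 the full-length difference was 0.00 (95% interval -0.65 to 0.65) and the truncated difference 0.40 (-0.26 to 1.05). For PRRX1 226695_at they were 0.35 (-0.32 to 1.01) and 0.06 (-0.61 to 0.72), and for TWIST1 -0.29 (-0.99 to 0.41) and -0.06 (-0.76 to 0.64). VIM 201426_s_at gave 0.04 (-0.67 to 0.75) and 0.01 (-0.70 to 0.72). Both of its intervals end short of a 2-fold effect, as do the full-length interval of SNAI2 and the truncated interval of PRRX1 226695_at. Both intervals of TWIST1 do so too, the full-length one by a small margin (-0.99). A 2-fold effect lies inside the truncated intervals of PRRX1 205991_s_at (-0.54 to 1.07) and 238852_at (-1.06 to 1.10). Both intervals of the dim VIM 1555938_x_at hold it as well (-2.04 to 2.90 and -1.28 to 3.66).

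For ZEB1 212764_at the differences were 0.40 (-0.34 to 1.15) and 0.30 (-0.45 to 1.04), and for TWIST2 229404_at 0.62 (-0.23 to 1.48) and -0.13 (-0.98 to 0.72). ZEB2 203603_s_at differed by 0.01 (-1.38 to 1.39) with full-length and 1.26 (-0.12 to 2.64; limma adjusted p = 0.81) with truncated NRSF. At 0 h its truncated array was already lower than the untreated one by -0.85 on the log2 scale. SNAI1 had the widest intervals of the 8 plotted probe sets, -2.26 to 1.73 and -2.20 to 1.80.

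**Figure D4:**
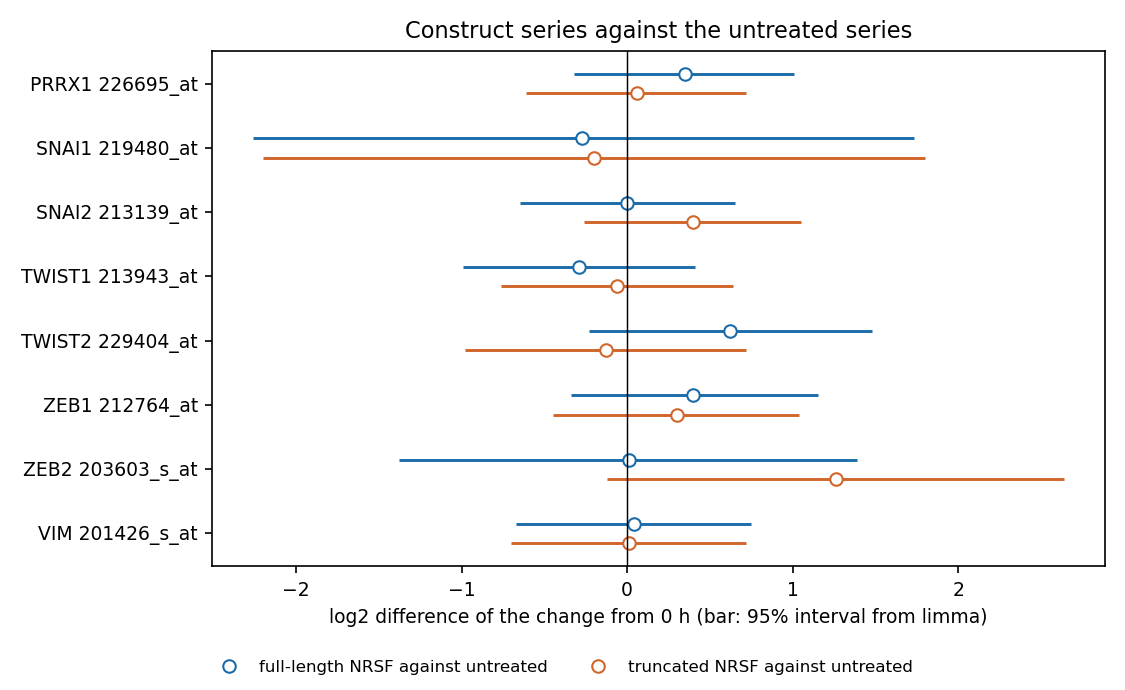
Log2 difference between the change of each construct series and that of the untreated series, with 95% intervals from limma, for the probe set with the highest mean signal of each gene. All 16 intervals include 0, and ZEB2 with truncated NRSF lies farthest from it at 1.26.

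Single-series values have no replicate check. At 24 h, 6 of 17 probe sets were at 2-fold or more from 0 h in the untreated series (21.6% of all tested), 7 in the full-length series (22.5%) and 8 in the truncated series (29.7%). At 48 h the counts were 3 (20.5%), 2 (21%) and 4 (21.2%). Between pairs of 0 h arrays, 2, 1 and 1 of the 17 differed by 2-fold (17.4%, 14.9% and 17.6% of all). REST, on whose product both constructs are built, read 177.2, 444.7 and 260.3 in untreated cells at 0, 24 and 48 h. It read 171.1, 268.3 and 273.5 with the full-length and 162, 323.1 and 341.6 with the truncated construct. It was higher after 0 h in the untreated series too, so its signal does not check the construct labels.

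Genes around the regulators were counted by 1 probe set per gene, among which 15.2% were called at 24 h (7.57% up, 7.62% down) and 7.46% at 48 h (4.03% up, 3.44% down). Of 25 listed epithelial genes that ZEB and SNAI factors repress, 24 had a probe set and 12 passed the filter and were tested. The filter used the mean over all 9 arrays, so a dim gene could pass through its later signals. The counts and medians describe the 12 tested genes only. Among them 2 rose at 24 h and 0 fell, with a median change of 0.77 against -0.03 for all genes. At 48 h, 1 rose and 0 fell, with a median of 0.22 against -0.01. Called or not, 9 were higher and 3 lower at 24 h, and 7 were higher and 5 lower at 48 h. OCLN, a tight junction protein, rose by 0.83 ± 0.27 (limma adjusted p = 0.046) at 24 h, and the mean over its probe sets changed by 0.11 (0.89). MAL2, with OCLN the brightest of the list, was not called at 24 h (-0.77 ± 0.30, 0.11) or 48 h (0.50 ± 0.30, 0.38). From 24 to 48 h MAL2 rose by 1.28 (0.03). CLDN3, on an uncertain probe set, read 2.713 and 5.025 at 0 h in the full-length and truncated series, under the floor of 8.266, and 13.83 in untreated cells. All of these lie below the filter's log2 level of 4.2, so CLDN3 was tested only through its later arrays. Its fitted rises of 2.03 ± 0.65 (limma adjusted p = 0.047) at 24 h and 2.29 ± 0.65 (0.044) at 48 h depend on that floor. With the floor at the 40th percentile they were 0.83 (0.2) and 1.08 (0.12). The mean over the CLDN3 probe sets changed by 0.95 (0.33) and 1.19 (0.27). Without the truncated 24 h array, 0 genes were called at 24 h and the median was 0.35. With the full-length, truncated or untreated series left out, 1, 0 and 0 were called at 24 h and 0 each at 48 h. CDH1 was not among the tested genes.

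Of 23 tested mesenchymal adhesion, surface and matrix genes, 7 fell and 0 rose at 24 h, and the median was -0.35. At 48 h, 4 fell and 1 rose, and the median was -0.21. FN1, which encodes the matrix protein fibronectin, read 1172, 1359 and 1066 at 0 h, 519.7, 417.6 and 401 at 24 h, and 522.3, 434 and 499.1 at 48 h. It fell by 1.43 ± 0.16 (limma adjusted p = 1.4e-05) and 1.30 ± 0.16 (0.00012) on the log2 scale, and at 48 h the mean over its probe sets changed by -0.64 (0.11). FAP, a fibroblast surface protease, changed by -1.40 ± 0.26 (0.0014) and -1.35 ± 0.26 (0.0043).

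PDGFRA, a growth factor receptor, changed by -1.06 ± 0.14 (limma adjusted p = 4.6e-05) at 24 h and -0.66 ± 0.14 (0.0067) at 48 h. The mean over its probe sets changed by -0.28 (0.54) at 24 h and 0.08 at 48 h, so both calls, and the direction at 48 h, depend on the probe set. CDH11, a mesenchymal cadherin, changed by -0.83 ± 0.17 at 24 h (0.0033) and rose by 0.98 from 24 to 48 h (0.0039). FN1, FAP and CDH11 are read by uncertain probe sets, as are both genes named next. The brightest of the list, S100A4 and ITGB1, were not called at 24 or 48 h, with -0.36 and -0.35 at 24 h. Without the truncated series 4 genes of this list fell at 24 h and 1 at 48 h, and without the untreated series 4 and 3.

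Of 26 other transcription factors of the mesenchymal state, 9 rose, 2 fell and 15 were not called at 24 h, and the median was 0.30. At 48 h, 1 rose and 1 fell, with a median of -0.05. FOSL1, an AP-1 subunit, read 203.2, 232.3 and 269.6 at 0 h, 752, 604.9 and 718.2 at 24 h, and 244.5, 211.3 and 406.3 at 48 h. It rose by 1.56 ± 0.20 (limma adjusted p = 4.5e-05) at 24 h and fell by 1.32 from 24 to 48 h (0.0011). EGR3, an immediate early factor, rose by 2.81 ± 0.53 (0.0015), MAFF by 1.65 ± 0.30 (0.0012) and BHLHE41 by 1.33 ± 0.19 (0.00016). EGR3 was near the floor of 8.266 at 0 h, with 30.09, 8.557 and 20.31. MAFF read 214.8, 442 and 256.2 at 0 h and 878, 522.3 and 1647 at 24 h, so its rise differed between series and was smallest in the truncated one. BHLHE41 is read by an uncertain probe set, and the means over the BHLHE41 and MAFF probe sets were 0.92 (0.14) and 1.60 (0.051). ID1 and IFI16, the brightest of the list and both uncertain, changed by -0.62 ± 0.17 (0.017) and -0.49 ± 0.14 (0.029). Without the truncated series 6 of the list rose and 0 fell at 24 h. At 48 h, 0 rose and 0 fell without the untreated series, and 0 rose and 1 fell without the full-length series.

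Of 20 tested adrenergic transcription factors, 3 fell and 1 rose at 24 h, and the median was -0.25. At 48 h, 1 fell, and the median was -0.09. With the truncated 24 h array left out, 2 fell at 48 h. SOX11, a factor of sympathetic progenitors, changed by -1.31 ± 0.17 (limma adjusted p = 4.6e-05) and -1.96 ± 0.17 (2.5e-06), on an uncertain probe set. MEIS2 changed by -0.97 ± 0.14 (0.00014) and EYA1 by -1.02 ± 0.23 (0.0054) at 24 h, and KLF7 rose by 0.65 ± 0.18 (0.023). The mean over the EYA1 probe sets changed by -0.54 (0.42). GATA3, an adrenergic core factor, was not called (-0.22 ± 0.15, 0.37). MEIS2, EYA1 and GATA3 are also read by uncertain probe sets.

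Of 9 dimer partners of TWIST and their ID inhibitors, 2 rose and 3 fell at 24 h (median 0.22), and 1 rose and 1 fell at 48 h (median 0.09). Without the truncated series 1 rose and 2 fell at 24 h. TCF4, an E-protein partner of TWIST, read 4377, 4928 and 4802 at 0 h, 1783, 1377 and 2091 at 24 h, and 2275, 2255 and 2871 at 48 h. It changed by -1.44 ± 0.15 (limma adjusted p = 4.2e-06) and -0.94 ± 0.15 (0.00094). ID4, an inhibitor of such dimers, rose by 1.34 ± 0.21 (0.00036) and 1.14 ± 0.21 (0.0036). The mean over the ID4 probe sets changed by 0.83 (0.073) and 0.54 (0.29). TCF3 changed by -0.99 ± 0.17 (0.00064) on an uncertain probe set, and the mean over its probe sets by 0.03 (0.96). The inhibitor gene ID1, with TCF4 the brightest of the list, changed by -0.62 ± 0.17 (0.017) at 24 h, on an uncertain probe set.

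Of 28 corepressors of ZEB and SNAI and enzymes of SNAI turnover, 2 rose and 3 fell at 24 h, and the median was -0.17. At 48 h, 2 rose, and the median was -0.22. AJUBA, a LIM-domain corepressor of SNAI proteins, rose by 1.02 ± 0.17 (limma adjusted p = 0.00056) and 0.83 ± 0.17 (0.0062). LATS2, a kinase of SNAI1, rose by 0.64 ± 0.14 (0.0054) at 24 h, and HDAC1, a histone deacetylase, changed by -0.64 ± 0.15 (0.0077). CTBP2, a ZEB corepressor, was not called (-0.08 ± 0.15). TRIM28, with CTBP2 the brightest of the list, changed by -0.50 ± 0.16 at 24 h (0.048). PRMT5, on an uncertain probe set, rose by 0.69 ± 0.17 at 48 h (0.019). LATS2 and CTBP2 are read by uncertain probe sets, and the mean over the AJUBA probe sets at 48 h was 0.73 (0.22). Without the truncated 24 h array, the full-length series or the truncated series, 2 of the list rose and 1 fell at 24 h. Without the untreated series 1 rose and 2 fell. At 48 h, 0 were called without the full-length series and 1 without the untreated series.

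Of 15 intermediate filament genes besides VIM, 1 rose and 1 fell at 24 h (median -0.35), and 2 rose and 3 fell at 48 h (median 0.05). At 48 h, 1 rose and 0 fell without the full-length series and without the truncated series, and 2 rose and 1 fell without the untreated series. INA, a neuronal filament gene, rose by 1.82 ± 0.25 (limma adjusted p = 7.7e-05) and 0.97 ± 0.25 (0.023). LMNB2, a nuclear lamin, changed by -1.13 ± 0.18 (3e-04) and -0.70 ± 0.18 (0.021). LMNB1, also a nuclear lamin, changed at 48 h by -1.10 ± 0.26 (0.016). KRT18, an epithelial keratin, rose at 48 h by 0.90 ± 0.15 (0.0018). NEFL, with KRT18 the brightest of the list, was not called at 24 h (-0.51 ± 0.17, 0.052) or 48 h (0.21 ± 0.17, 0.53). INA, LMNB2 and KRT18 are read by uncertain probe sets. Of 4 tested near paralogues of the regulators, ALX1, a paired-type homeobox gene, rose by 0.73 ± 0.23 at 24 h (0.044), and SHOX2, on an uncertain probe set, was not called (0.20 ± 0.26). Without the truncated 24 h array, or without any of the 3 series, 0 of these 4 were called.

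**Figure D5:**
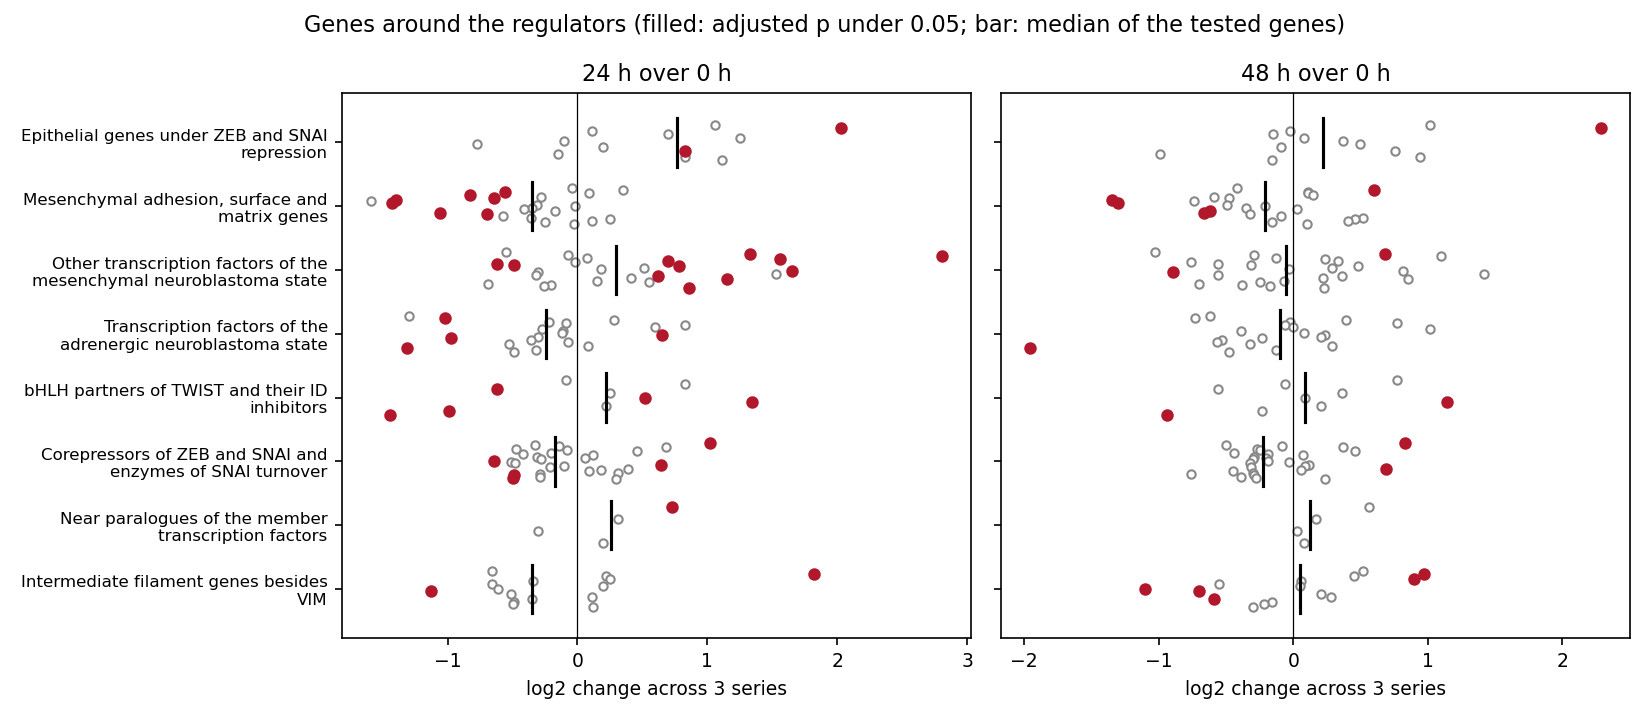
Log2 change at 24 h (left) and 48 h (right) over 0 h across the 3 series for the tested genes of 8 lists, by each gene's probe set with the highest mean signal; filled points have a limma adjusted p under 0.05 and bars mark list medians. At 24 h 7 of 23 mesenchymal adhesion, surface and matrix genes fell and 0 rose, and at 48 h 4 fell and 1 rose. Of 26 other mesenchymal transcription factors, 9 rose and 2 fell at 24 h, and 1 rose and 1 fell at 48 h. Of all tested genes, 7.57% rose and 7.62% fell at 24 h, and 4.03% and 3.44% at 48 h.

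Markers of other cell types that a culture could hold were dim. Of 6 epithelial markers 1 passed the filter (CLDN4), with a summed signal over the list of 108.5 to 144.4 at 0 h, 145.3 to 157.7 at 24 h and 116.5 to 159.2 at 48 h. Of 5 blood markers 4 had a probe set and 2 passed, with sums of 134 to 145.3, 153.2 to 232.2 and 188.5 to 234.7, and PTPRC was called up at 48 h by 1.05 ± 0.30 (limma adjusted p = 0.042), while the mean over its probe sets changed by 0.21 (0.79). Of 5 endothelial markers 1 passed, with sums of 142 to 219.9, 131.4 to 225.6 and 171.7 to 254.9. Of 5 Schwann and melanocyte markers 3 had a probe set and 1 passed, with sums of 15.25 to 65.52, 23.46 to 88.94 and 43.87 to 45.67. Their part in the changes of the regulators was not tested.

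Across the 9 arrays, the genes most like each regulator were ranked by Pearson correlation of log2 signal among 11304 genes, as a description of arrays that share their time points. PRRX1 was most like EXTL2 (0.977), NQO2 (0.967) and MEST (0.966), and 58 genes reached 0.9. SNAI2 was most like CMTR2 (0.988), FAM199X (0.985) and IFRD1 (0.980), with 197 genes at 0.9 or more. TWIST1 was most like CCNA2 (0.966), WIPF1 (0.964) and TPX2 (0.961), with 78 genes, of which CCNA2 and TPX2 are genes of the cell cycle. For TWIST2 the nearest was CSPG5 (0.959), for ZEB1 TNRC6C (0.955), for ZEB2 THAP5 (0.953), for VIM CARM1 (0.941) and for SNAI1 LRSAM1 (0.957), with 6 to 33 genes at 0.9 or more.

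Between the regulators' own probe sets, the 3 of PRRX1 correlated with each other at 0.75 to 0.91. SNAI2 correlated with TWIST1 at -0.77. With ZEB2 it correlated at 0.90 on the uncertain 203603_s_at, 0.43 on 235593_at and -0.73 on 228333_at, so the sign depends on the probe set. The ZEB2 probe sets 203603_s_at and 228333_at correlated at -0.90, although both are annotated to 1 gene. These values rest on 9 arrays that share 3 time points.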

How the data were processed

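RNA of SK-N-AS cells was measured on 9 Affymetrix arrays of 1 colour, 1 per series and time point. The deposited values are linear signal intensities, made by the authors. The submitters' processing notes name GCOS. Its version and settings have no entry in the sources used here. The series description speaks of triplicates and batches, but the labels tie no array to a replicate or batch. Whether an array pools cultures is not known. Each array's mean without the lowest and highest values was 150.02, and the values were not rescaled. Values under 8.266, their 25th percentile, were raised to it before the log2. Of 54675 probe sets, 41091 named 1 gene (41037 by Entrez ID), 1801 named several, 11721 were unnamed and 62 were controls, and only the first kind was used. Those with a mean log2 signal above 4.2, the 40th percentile, were tested (26480, or 13799 genes by the brightest probe set).

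Models were fitted by limma 3.58.1 (R 4.3.3, data.table version 1.17.8), lmFit and eBayes with a variance trend, two-sided, Benjamini-Hochberg adjusted. The time model held series and time (4 residual degrees of freedom, 18.3 altogether after moderation). The exposure model added a term per construct at 24 and 48 h (2 residual, 17.4 in total); 24 and 48 h serve as repeats, not as replicate cultures. Tested on simulated data of 26480 rows, the 24 h contrast recovered 40% of 2-fold and 75% of 4-fold changes with 5 false calls; the full-length contrast had 7. Alternatives covered normalization, floor, offset, filter, probe set choice, variance trend, block and left-out arrays or series. Named genes were all probe sets of the 8 genes and, per regulator, the 3 genes with the highest correlation. Per list they were the 2 brightest members and up to 4 called members with the largest change. Not all of these genes are printed. The members and lists were chosen with earlier results of these data known. Promoter sequences and gene positions are from RefSeq (GRCh38.p14).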

Additional observations from a re-analysis of the deposited data

Results flagged for a closer look

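TWIST2 229404_at and ZEB1 210875_s_at moved in opposite directions in 2 series, at both later times. TWIST2 229404_at changed from its own 0 h array by 0.30 at 24 h and 0.08 at 48 h (log2) in the full-length series. In the untreated series it changed by -0.54 and -0.34, and in the truncated series by -0.81 and -0.32. The exposure model gave a full-length against untreated difference of 0.62 (limma adjusted p = 1) and a full-length against truncated difference of 0.75 (adjusted p = 0.9). ZEB1 210875_s_at, an uncertain probe set, changed by -1.20 and -0.51 in the full-length series and by 0.11 and 0.52 in the truncated series. In the untreated series it changed by 0.21 and -1.60. The exposure model gave -1.17 between them (95% interval -3.05 to 0.72, adjusted p = 0.94). Each of these series values rests on 1 array, and some are close to 0. The share of all tested probe sets with such opposite signs is not given here.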

How the results depend on the processing

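Of the 11 calls made for the regulators across time, 1 was kept under every alternative run, the rise of SNAI2 at 24 h (1.14 to 1.34). Of 182 followed results with a test, 2 reversed, both with the mean over a gene's probe sets: TCF3 at 24 h (0.03) and PDGFRA at 48 h (0.08). For the 6 regulator calls at 24 h, the count was 3 with no filter on dim probe sets, 3 of 8 genes with the mean over probe sets and 1 without the variance trend. For the 2 calls at 48 h it was 1 with no filter, 0 without the trend and 1 to 1 with a series left out. For the 3 calls of 48 over 24 h it was 0 with no filter, 0 without the trend, and 1 of 8 genes with the brightest probe set or the mean.

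Over all probe sets, the 3466 calls at 24 h became 1462 with no filter, 2242 by the brightest probe set, 1213 by the mean, 446 without the trend, 2078 without the truncated 24 h array and 1682 to 2263 with a series left out. The 1647 calls at 48 h became 238 with no filter, 477 by the mean, 2 without the trend and 509 to 778 with a series left out. The 697 calls of 48 over 24 h became 0 with no filter, 0 without the trend, 175 by the mean, 238 without the truncated 24 h array and 198 to 277 with a series left out. The full-length count of 0 became 1 with an offset of 16 in place of the floor and 1 by the brightest probe set. The truncated count of 2 became 1 with quantile normalization, 7 with the offset, 5 by the brightest probe set, and 0 with the higher floor, with no filter, with the stricter filter, by the mean and without the trend. The full-length against truncated count of 0 became 5 with the offset and 2 by the brightest probe set. The cause of these shifts was not tested, except that fewer genes or arrays enter some of these fits. The series had no numbered replicates and served as the block; with no replicate block the regulators' counts were 6, 2 and 3, as with it, and those over all probe sets 3122, 1360 and 541. The fits without the 48 h or without the 24 h arrays were chosen after seeing the data and gave 5 calls at 24 h and 2 at 48 h.

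Of the 41 calls at 24 and 48 h for named genes of the lists, 31 were lost without the variance trend, 20 with no filter, 18 by the mean over probe sets, 8 without the truncated 24 h array, and 15, 18 and 13 without the full-length, truncated and untreated series.

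With 1 array per group, construct effects have no replicate check. Among the regulators, signals at or near the floor limit ZEB2 233031_at, ZEB2 233033_at and TWIST2 1554163_at most. Among the named list genes they also limit CLDN3.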

Other observations

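ZEB1-AS1, the RNA transcribed divergently from ZEB1, was read by probe set 229090_at at 52.93, 50.63 and 60.66 at 0 h, in the order full-length NRSF, truncated NRSF, untreated. It read 55.69, 115.7 and 72.91 at 24 h and 39.49, 28.36 and 41.92 at 48 h. Every 48 h array was below every 0 h array, as in 13.4% of tested probe sets, and the truncated 24 h array was the highest. The change was 0.51 ± 0.45 (log2, SE) at 24 h (limma adjusted p = 0.53) and -0.60 ± 0.45 at 48 h (adjusted p = 0.51), so neither was called. It was named after its values were seen.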
